A study of Mus musculus with 18 samples.

Results

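The transcripts of 10 genes of the transforming growth factor beta (TGF-beta) pathway were followed across 6 sorted populations of mouse intestinal CD4+ T cells. The 10 were the ligand Tgfb1, the receptors Tgfbr1, Tgfbr2 and Tgfbr3, the signal transducers Smad2, Smad3 and Smad4, the inhibitory Smad7, and the antagonists Ski and Skil. They were taken by gene symbol from a table of 38392 genes, 1 row each, and all 10 passed the filter on low values used for testing, as did 15472 genes in all.

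All populations came from the same kind of transfer, and the labels do not say whether the replicates come from 1 experiment or from separate ones. CD4+CD8α-Foxp3-GFP- T cells of donor mice labelled C57BL/6 TNa TNb RAG1-/- Foxp3GFP, which the series title calls a clonal precursor, were placed into hosts labelled C57BL/6 TCRa-/- TCRb-/-. These hosts cannot make alpha-beta T cells of their own but still have B cells, gamma-delta T cells and innate cells. At 6 weeks the transferred cells were sorted from the small intestine, from the epithelial layer (IEL) and from the lamina propria beneath it (LP), and mRNA was sequenced. At each site there were 3 populations with 3 libraries each. DP cells were CD4+CD8α+, TR cells were CD4+Foxp3+, and SP cells were CD4+CD8α-Foxp3- and had kept the phenotype of the cells transferred. Every population therefore shares the donor alleles, including loss of Rag1, and the host. The populations compared were IEL.DP, IEL.TR, IEL.SP, LP.DP, LP.TR and LP.SP. In the labels the 3 libraries of a group are biological replicates, with no animal named, so the p-values measure the spread between these libraries.

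TGF-beta is secreted in a latent form and acts once released from it. The active ligand binds the type II receptor Tgfbr2, which then phosphorylates the type I receptor Tgfbr1. Tgfbr1 phosphorylates Smad2 and Smad3, which enter the nucleus with Smad4 and regulate genes. Smad7 is induced by the signal and blocks the receptor, while Ski and Skil (SnoN) bind Smad complexes in the nucleus and repress their targets. In the gut, TGF-beta is known for its part in the induction of Foxp3 and in the generation of CD4+CD8α+ intraepithelial cells.

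Levels are given as normalised read counts, that is, reads per gene multiplied by 1 factor per library by the authors. The libraries held between 5093955 and 8851347 reads assigned to genes, with a median of 5903164.5. Cd8a ran between 3364 and 6444 in the 6 DP libraries, against 3.15 to 113 in the other 12, and Foxp3 between 66.2 and 164 in the 6 TR libraries, against 0 to 39.9 in the other 12. Cd4 lay between 543 and 1341 throughout, and the summed level of 6 alpha-beta T cell markers between 10435 and 14563. Pairs of IEL.TR libraries correlated at 0.805 to 0.873 over genes, against 0.924 to 0.944 within the other groups, and the median SD of a gene was 0.55 log2 units in IEL.TR, against 0.30 to 0.35. For that reason comparisons with IEL.TR used only the libraries compared, and the others used the 15 libraries outside IEL.TR. Differences were tested with limma on log2(normalised count + 1) over the 15472 genes, and p-values were adjusted by Benjamini-Hochberg, with 0.05 as the limit of a call. The fold on this scale understates the change of genes near 0.

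Per kilobase of exon, and averaged over the 18 libraries, Skil had the highest level of the 10 genes at 938 normalised counts per kb, and Smad7 followed at 268. Tgfbr3 stood at 70.6, Tgfbr2 at 65.5 and Smad4 at 52.2. Smad3 at 36.7, Ski at 32.5, Tgfbr1 at 30.2 and Smad2 at 25.5 formed a lower set, and the ligand Tgfb1 was lowest at 6.27. The 2 most abundant transcripts of the 10 were thus those of an antagonist and of the inhibitory Smad.

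**Figure D1:**
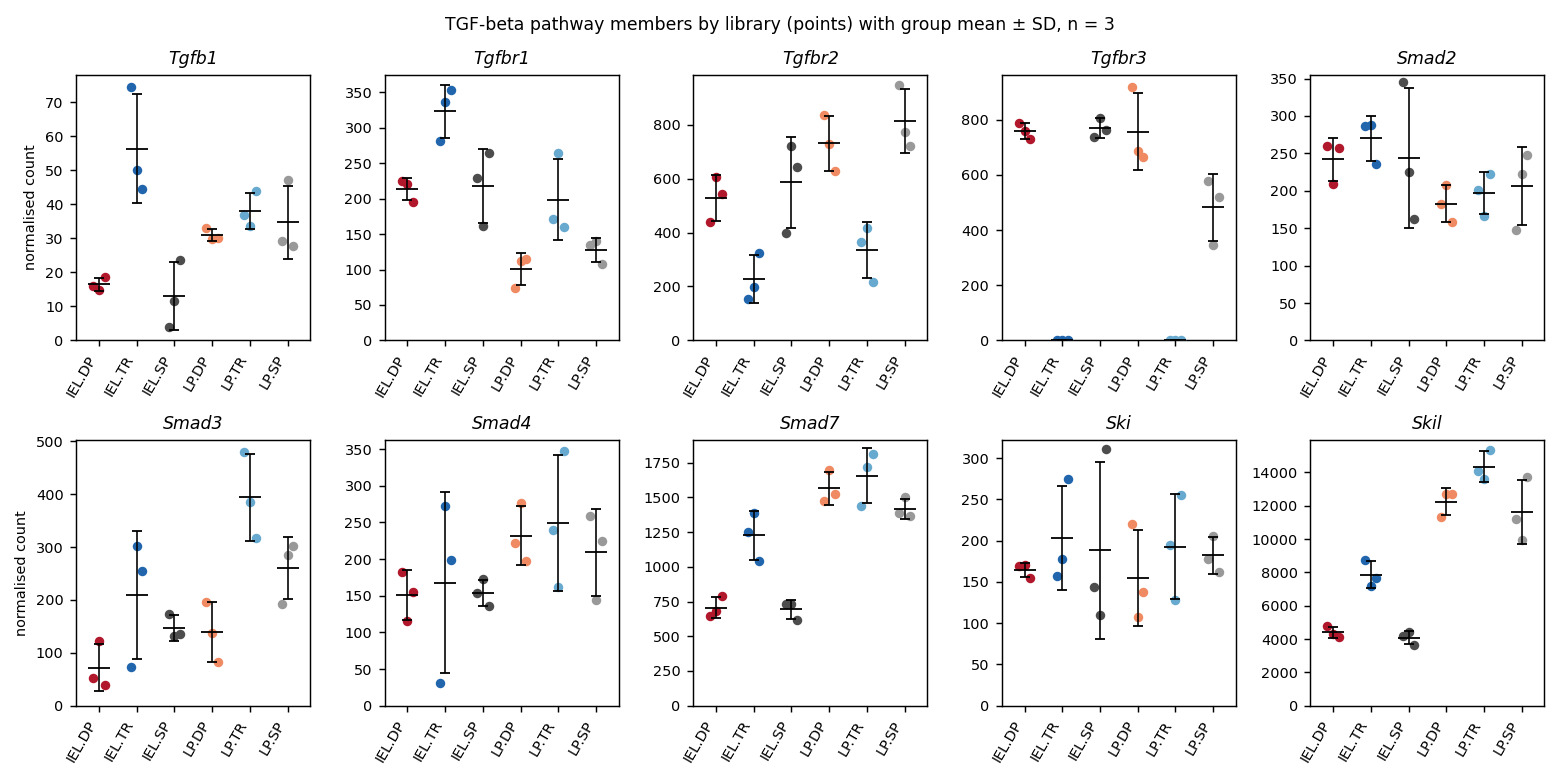
Normalised read counts of the 10 genes in every library, 1 panel per gene, with DP, TR and SP of the epithelial layer followed by those of the lamina propria on the horizontal axis, points for libraries and horizontal bars for the mean ± SD of 3. Tgfbr3 stood between 667 and 918 in the DP libraries, at or below 3.25 in the TR libraries and between 348 and 808 in the SP libraries, while Skil and Smad7 were lower in the epithelial than in the lamina propria libraries of DP and SP cells.

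The largest difference in the set was in Tgfbr3 (betaglycan, ENSMUSG00000029287), the co-receptor that presents ligand to Tgfbr2. Tgfbr3 was almost absent from Foxp3+ cells at both sites and was among the better expressed of these genes in all other cells. It had 789.7, 761 and 732 normalised counts in IEL.DP, 1.05, 2.75 and 0.87 in IEL.TR, which were 6 reads in all, and 738, 808 and 764 in IEL.SP. The lamina propria libraries had 918, 686 and 667 in LP.DP, 3.25, 0 and 0 in LP.TR, 3 reads in all, and 579, 348 and 520.4 in LP.SP. No TR library came near a library of another population, and in 2 of the LP.TR libraries no read was found, which allows up to 3.73 and 3.65 normalised counts (3 reads).

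From summed reads scaled by the authors' factors, the level in IEL.TR was 0.220% of that in IEL.SP (95% exact interval 0.0805 to 0.478%), and the level in LP.TR was 0.255% of that in LP.SP (0.0526 to 0.747%). Against the CD4+CD8α+ cells the shares were 0.222% in IEL.TR and 0.157% in LP.TR. These intervals cover counting error only. On the log2 scale Tgfbr3 fell in IEL.TR relative to IEL.SP (log2 difference -8.31 ± 0.37 SE, adjusted p = 0.00128), and in LP.TR relative to LP.SP (log2 difference -8.19 ± 0.42 SE, adjusted p = 7.08e-08). It was higher in IEL.DP than in IEL.TR (log2 difference 8.29 ± 0.37 SE, adjusted p = 6.36e-04), and higher in LP.DP than in LP.TR (log2 difference 8.85 ± 0.42 SE, adjusted p = 2.16e-08). With a pseudocount of 5 in place of 1, the 4 differences were -6.90, -6.33, 6.88 and 6.995. Without a filter on low values the adjusted p of IEL.DP against IEL.TR was 0.0513.

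The order of Tgfbr3 group means ran IEL.SP, IEL.DP, LP.DP, LP.SP, IEL.TR and LP.TR. The ranges of IEL.SP, IEL.DP and LP.DP overlapped, and those of both TR groups did, whereas LP.DP at 667 to 918 lay wholly above LP.SP at 348 to 579. That difference did not pass the test (log2 difference 0.67 ± 0.42 SE, adjusted p = 0.672), though DESeq2 called it at an adjusted p of 0.0414. In bulk samples, fewer cells with a transcript and less of it per cell cannot be told apart. The exons of Tgfbr3 (chromosome 5, 107106570 to 107289629, minus strand, GRCm38) overlap those of Gm43422, a transcript model on the same strand that is not a row of the table. The Tgfbr3 counts may therefore include reads of Gm43422.

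Beside this difference, 3 genes of the T cell receptor gamma chain, led by Tcrg-C4, summed to 1316 to 1776 in IEL.DP, 1.05 to 3.49 in IEL.TR and 700 to 887 in IEL.SP. In the lamina propria they summed to 670 to 731 in LP.DP, 1.08 to 8.7 in LP.TR and 165 to 274 in LP.SP. No row was found for the delta chain genes sought, so these sums cover the gamma chain only. The part of the gamma chain genes in the Tgfbr3 difference was not tested. The summed alpha-beta T cell markers were no lower in TR than in SP libraries, at 13541 to 14563 in IEL.TR against 11756 to 12775 in IEL.SP. The same held in the lamina propria, at 11511 to 13311 in LP.TR against 10435 to 11578 in LP.SP. B and plasma cell markers summed to 49.4 to 320 in IEL.TR against 66.1 to 77.2 in IEL.SP, and to 141 to 626 in LP.TR against 52.7 to 77.6 in LP.SP. Markers of stroma and endothelium summed to 4.97 to 17.0 in LP.TR against 97.0 to 129 in LP.SP, those of innate lymphoid cells to 18.7 to 48.7 in LP.TR against 129 to 170 in LP.SP, and those of myeloid cells to 73.4 to 87.6 in LP.TR against 131 to 453 in LP.SP. The stromal and endothelial sum in LP.SP was almost all Pecam1, at a mean of 102, and no other gene of that list passed the filter. The part of all these markers in the TR differences was not tested.

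The 5 genes whose 6 group means were nearest to those of Tgfbr3 were sought among 9804 genes with a mean of at least 50, by the root mean square difference of centred log2 group means. They were Amica1 at 0.69 log2 units, which encodes the adhesion molecule Jaml, Qpct at 0.74, an enzyme of glutaminyl cyclisation, Ccl5 at 0.86, a chemokine, Itga1 at 0.88, the collagen-binding integrin chain alpha 1, and Tcrg-C4 at 0.95. The measure picks genes that share the drop in TR cells, so that drop is no finding about them. Amica1 averaged 15.7 normalised counts in IEL.TR against 4751 in IEL.SP. Its lamina propria means were 28.1 in LP.TR against 1607 in LP.SP. Ccl5 averaged 39655 in IEL.DP, 170 in IEL.TR and 21963 in IEL.SP.

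**Figure D2:**
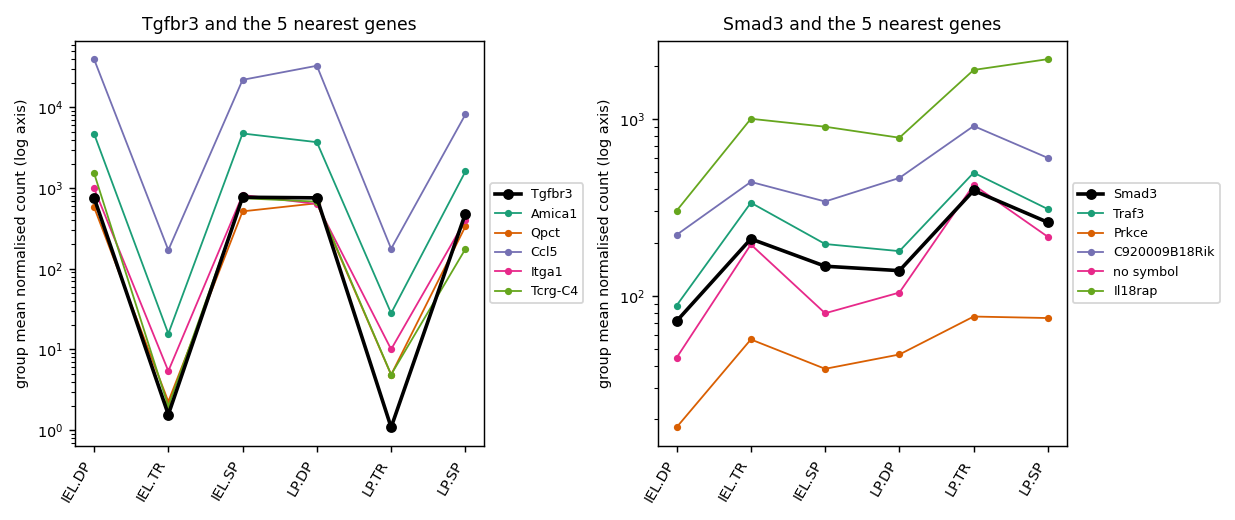
Group means of Tgfbr3 and Smad3 (heavy lines) and of the 5 genes nearest to each (thin lines) over the 6 populations, on a logarithmic scale. The Tgfbr3 panel shows all 6 genes far lower in both TR groups than in the other groups, and the Smad3 panel shows its genes lowest in IEL.DP and high in LP.TR.

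The 2 signalling receptors differed in opposite directions between LP.TR and LP.DP. Tgfbr2, the ligand-binding kinase, was lower in LP.TR than in both other lamina propria populations, and Tgfbr1, the kinase that phosphorylates Smad2 and Smad3, was higher in LP.TR than in LP.DP. The windows upstream of both genes, and of Smad3, are shown because these are 3 of the 4 genes called between LP.DP and LP.TR. They are the 250 bases before the annotated start, 5′ to 3′ on the gene's strand, from RefSeq on GRCm38.p6, and lie at chr9:116175364-116175613 (minus strand) for Tgfbr2, chr4:47352972-47353221 (plus strand, the upstream of 2 entries) for Tgfbr1 and chr9:63757995-63758244 (minus strand) for Smad3. Capitals mark matches to CAGAC, the Smad box, to TGTGGT, the Runx core, and to GGGCGG, the GC box, searched on both strands.
Tgfbr2: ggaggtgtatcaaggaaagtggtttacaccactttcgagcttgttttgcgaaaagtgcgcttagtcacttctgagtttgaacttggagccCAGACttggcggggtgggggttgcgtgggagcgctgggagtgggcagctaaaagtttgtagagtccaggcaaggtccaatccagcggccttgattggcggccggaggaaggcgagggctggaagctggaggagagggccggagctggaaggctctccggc
Tgfbr1: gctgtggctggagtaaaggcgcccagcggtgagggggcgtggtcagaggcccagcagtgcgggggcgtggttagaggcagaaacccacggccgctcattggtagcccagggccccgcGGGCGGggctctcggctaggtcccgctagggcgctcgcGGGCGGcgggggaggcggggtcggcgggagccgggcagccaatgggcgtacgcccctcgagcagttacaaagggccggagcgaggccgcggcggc
Smad3: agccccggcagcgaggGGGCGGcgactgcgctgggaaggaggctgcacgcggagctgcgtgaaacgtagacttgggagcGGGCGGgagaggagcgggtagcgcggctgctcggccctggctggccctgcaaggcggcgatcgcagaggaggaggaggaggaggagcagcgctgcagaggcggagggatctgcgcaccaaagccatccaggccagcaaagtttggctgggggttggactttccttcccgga
Tgfbr2 held 1 CAGAC, 160 bases before the start, and neither of the other motifs. The windows printed for Tgfbr1 and Smad3 held 2 GGGCGG each, and no CAGAC. The other Tgfbr1 entry, at chr4:47385966-47386215, held 1 CAGAC, 203 bases before its start, and no GGGCGG. None of these windows held TGTGGT, and no matches overlapped. Of 32851 mouse windows of this length, 42.19% held CAGAC, 14.05% TGTGGT and 32.74% GGGCGG, so each match is common and is given as a description. Entries were found for 5 of the 10 genes: Tgfb1, Tgfbr1, Tgfbr2, Smad3 and Ski.

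Tgfbr2 had 835, 729 and 629 normalised counts in LP.DP, 366, 418 and 218 in LP.TR and 946, 771 and 719.8 in LP.SP. The LP.TR libraries lay below every LP.DP and LP.SP library. Tgfbr2 fell in LP.TR relative to LP.SP (log2 difference -1.32 ± 0.26 SE, adjusted p = 0.00473), and was higher in LP.DP than in LP.TR (log2 difference 1.17 ± 0.26 SE, adjusted p = 0.00700). In the epithelial layer it had 438, 607 and 543 in IEL.DP, 154, 199 and 326 in IEL.TR and 398, 721 and 642 in IEL.SP. The IEL.TR libraries again lay below the others, but neither IEL.TR against IEL.SP (log2 difference -1.39 ± 0.36 SE, adjusted p = 0.121) nor IEL.DP against IEL.TR (log2 difference 1.28 ± 0.32 SE, adjusted p = 0.0988) passed. IEL.DP against IEL.TR passed without IEL.TR library 3, at an adjusted p of 0.0418, and DESeq2 called both differences, at 0.00711 for TR against SP and 0.00558 for DP against TR. The order of group means ran LP.SP, LP.DP, IEL.SP, IEL.DP, LP.TR and IEL.TR, and the only neighbours whose ranges did not overlap were IEL.DP and LP.TR.

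Tgfbr1 had 74.2, 112 and 115 in LP.DP, against 171, 265 and 161 in LP.TR, with no overlap, and was lower in LP.DP (log2 difference -0.97 ± 0.25 SE, adjusted p = 0.0189). LP.SP stood between them at 135, 140.3 and 108. LP.TR lay wholly above LP.SP, but that difference did not pass (log2 difference 0.61 ± 0.25 SE, adjusted p = 0.161). The call for LP.DP against LP.TR was lost without LP.DP library 1 (adjusted p = 0.0853), without LP.TR library 2 (0.0895) and with only the 6 libraries compared (0.0768). In the epithelial layer Tgfbr1 had 225, 220.1 and 195 in IEL.DP, 282, 336 and 353 in IEL.TR and 229, 161 and 264 in IEL.SP. It was higher in IEL.DP than in LP.DP (log2 difference 1.11 ± 0.25 SE, adjusted p = 0.0135), a call that was lost without LP.DP library 1 (0.0556). The IEL.TR libraries were the highest of all 18, but IEL.TR against IEL.SP did not pass (log2 difference 0.59 ± 0.25 SE, adjusted p = 0.313). For IEL.SP over LP.SP the ranges did not overlap and the test was not passed (log2 difference 0.75 ± 0.25 SE, adjusted p = 0.0785). That difference passed without IEL.SP library 2 (0.0453).

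The ratio of Tgfbr2 to Tgfbr1 per kilobase of exon within each library shows both differences at once. It was 1.55, 2.20 and 2.22 in IEL.DP, 0.438, 0.473 and 0.737 in IEL.TR and 1.38, 3.58 and 1.94 in IEL.SP. For the lamina propria it was 8.98, 5.19 and 4.37 in LP.DP, 1.71, 1.26 and 1.08 in LP.TR and 5.60, 4.39 and 5.33 in LP.SP. At each site the TR libraries lay below all others, and in each population the epithelial libraries lay below those of the lamina propria. IEL.TR was the only group in which Tgfbr1 exceeded Tgfbr2 in all 3 libraries. The ratio was examined because both genes had moved, and it was not tested.

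**Figure D3:**
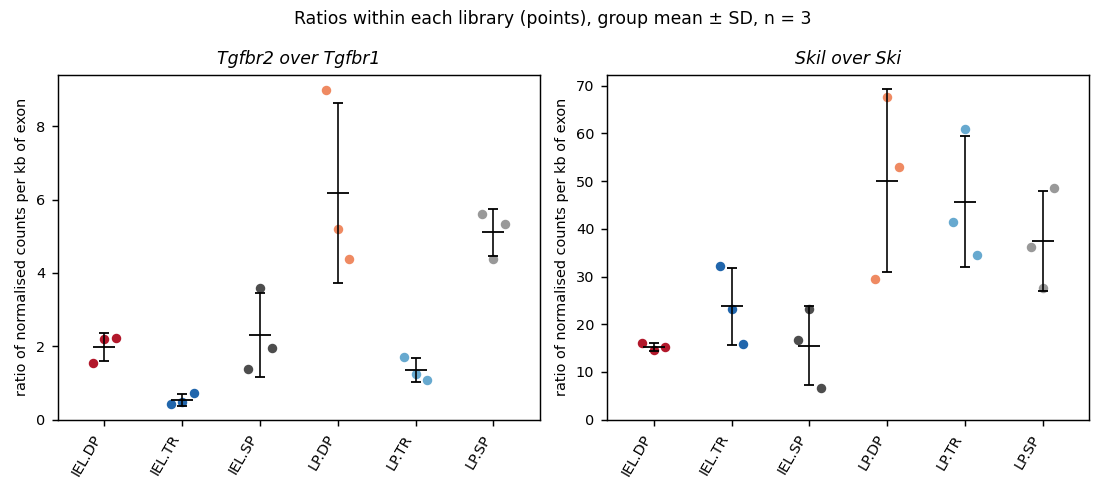
Ratios of normalised counts per kb of exon within each library, Tgfbr2 over Tgfbr1 on the left and Skil over Ski on the right, for DP, TR and SP of the epithelial layer and then of the lamina propria, with points for libraries and bars for the mean ± SD of 3. Tgfbr2 over Tgfbr1 lay at 0.438 to 0.737 in IEL.TR and 1.08 to 1.71 in LP.TR, below the DP and SP libraries of the same site.

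Tgfb1 (chromosome 7, 25687002 to 25705077, plus strand, GRCm38), the ligand that activated T cells and regulatory T cells themselves make, was scarce in every population and lowest in epithelial DP and SP cells. It had 16.03, 14.9 and 18.6 in IEL.DP, 74.6, 50.2 and 44.4 in IEL.TR and 4.01, 11.7 and 23.8 in IEL.SP. In the lamina propria it had 33.0, 29.7 and 30.1 in LP.DP, 36.8, 33.6 and 43.8 in LP.TR and 29.3, 47.0 and 27.8 in LP.SP. The 3 IEL.TR libraries were above every other epithelial library. Tgfb1 was lower in IEL.SP than in LP.SP (log2 difference -1.58 ± 0.45 SE, adjusted p = 0.0407). That value rests on 43 reads in IEL.SP against 112 in LP.SP, was lost in edgeR's test on reads (adjusted p = 0.0693) and without a filter on low values (0.0697), and did not survive the removal of any single library other than IEL.SP library 3 (0.0688 to 0.131). With only the 6 libraries compared the adjusted p was 0.181. IEL.TR against IEL.SP did not pass (log2 difference 2.27 ± 0.64 SE, adjusted p = 0.146), nor did IEL.DP against IEL.TR (log2 difference -1.68 ± 0.34 SE, adjusted p = 0.0571), although neither pair overlapped.

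Of the transducers, only Smad3 was called in any comparison. Smad3 carries the signal to DNA with Smad4, and had 196, 138 and 82.9 in LP.DP, 480.3, 386 and 317 in LP.TR and 193, 286 and 301 in LP.SP. All LP.TR libraries exceeded all LP.DP libraries, and Smad3 was lower in LP.DP than in LP.TR (log2 difference -1.56 ± 0.39 SE, adjusted p = 0.0149). The call was lost without LP.DP library 3 (0.0702) or LP.TR library 1 (0.0603), and with all 18 libraries in the fit (0.0693). In the epithelial layer Smad3 had 52.4, 123 and 39.99 in IEL.DP, 72.5, 302 and 255 in IEL.TR and 174, 131 and 136 in IEL.SP. IEL.DP lay wholly below IEL.SP, and LP.DP overlapped LP.SP. Neither the epithelial (log2 difference -1.18 ± 0.39 SE, adjusted p = 0.477) nor the lamina propria difference (log2 difference -0.96 ± 0.39 SE, adjusted p = 0.405) passed. Between sites, IEL.DP against LP.DP did not pass either (log2 difference -1.02 ± 0.39 SE, adjusted p = 0.115), but did so without IEL.DP library 2 (0.0190), the highest of its group.

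The measure of nearness used for Tgfbr3 is not scaled to the span of a member's group means. That span was 8.89 log2 units for Tgfbr3 and 2.59 for Smad3, so distances are not compared between the 2 members. The genes nearest to Smad3 over the 6 group means were sought by the same measure. They were Traf3 at 0.17 log2 units, an adaptor of TNF receptor family signalling, Prkce at 0.26, a protein kinase C, C920009B18Rik at 0.26, a gene without a symbol in the table at 0.30, and Il18rap at 0.30, a chain of the interleukin 18 receptor. Traf3 averaged 88.1 normalised counts in IEL.DP, 336 in IEL.TR and 196 in IEL.SP, and 179 in LP.DP, 497 in LP.TR and 309 in LP.SP. The measure picks genes whose group means run like those of Smad3, so the shared order of populations is no finding about them.

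Smad2, the partner of Smad3, and Smad4, the Smad shared by all branches, passed in none of the 9 pairwise comparisons. Smad2 ran between 148 and 345 over all 18 libraries, with group means of 242 ± 28.5 in IEL.DP, 270.0 ± 30.1 in IEL.TR, 244 ± 93.2 in IEL.SP, 183 ± 24.5 in LP.DP, 197 ± 28.3 in LP.TR and 206 ± 52.2 in LP.SP (SD, n = 3 each). Its epithelial means were the 3 highest, and the widest difference between sites was for IEL.TR over LP.TR (log2 difference 0.46 ± 0.21 SE, adjusted p = 0.441). Smad4 had 31.5, 273 and 199 in IEL.TR, so that this 1 group held both the lowest value of all libraries and 1 of the higher ones. The other groups ran at 151 ± 34.1 in IEL.DP, 154 ± 18.0 in IEL.SP, 232 ± 40.4 in LP.DP, 249.6 ± 93.0 in LP.TR and 209 ± 59.0 in LP.SP.

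Smad7 (chromosome 18, 75367529 to 75395935, plus strand, GRCm38), the inhibitory Smad, was lower in the epithelial layer than in the lamina propria in both DP and SP cells. It had 643, 683 and 791 in IEL.DP, against 1472, 1698 and 1525 in LP.DP. It had 732, 733 and 616 in IEL.SP, against 1391, 1500.2 and 1365 in LP.SP. In both populations the lowest lamina propria library was well above the highest epithelial one. The difference in DP cells (log2 difference -1.15 ± 0.12 SE, adjusted p = 3.36e-05) and that in SP cells (log2 difference -1.04 ± 0.12 SE, adjusted p = 7.30e-05) passed in every alternative tried. In Foxp3+ cells Smad7 had 1254, 1389 and 1039.5 in IEL.TR, against 1438, 1721 and 1813 in LP.TR, with no overlap, but the difference did not pass (log2 difference -0.44 ± 0.16 SE, adjusted p = 0.323). IEL.TR lay above all other epithelial libraries, and its differences missed the threshold narrowly, in IEL.TR against IEL.SP (log2 difference 0.82 ± 0.16 SE, adjusted p = 0.0587) and in IEL.DP against IEL.TR (log2 difference -0.79 ± 0.16 SE, adjusted p = 0.0571). With library weights both passed, at 0.0482 for TR against SP and 0.0456 for DP against TR.

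Skil (chromosome 3, 31095058 to 31122577, plus strand, GRCm38), which encodes the co-repressor SnoN, was lower in the epithelial layer in all 3 populations, and within the epithelial layer was higher in Foxp3+ cells. It had 4756, 4310.1 and 4116 in IEL.DP, against 11320.4, 12706 and 12693 in LP.DP. It had 8765, 7190.0 and 7635 in IEL.TR, against 14062, 13610.5 and 15369 in LP.TR. It had 4186, 4430.3 and 3642 in IEL.SP, against 11210.2, 9919 and 13729 in LP.SP. All 9 epithelial libraries lay below all 9 of the lamina propria. Skil fell in IEL.DP relative to LP.DP (log2 difference -1.48 ± 0.11 SE, adjusted p = 1.59e-06), in IEL.SP relative to LP.SP (log2 difference -1.50 ± 0.11 SE, adjusted p = 1.20e-06), and in IEL.TR relative to LP.TR (log2 difference -0.87 ± 0.10 SE, adjusted p = 0.0345). The DP and SP calls held in every alternative tried. The TR call was lost without IEL.TR library 2 or 3 or without any LP.TR library, at adjusted p of 0.0733 to 0.205, and with no filter (0.399), quantile scaling (0.0545) or the replicate block (0.172).

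Within the epithelial layer Skil rose in IEL.TR relative to IEL.SP (log2 difference 0.94 ± 0.12 SE, adjusted p = 0.0180), and was lower in IEL.DP than in IEL.TR (log2 difference -0.84 ± 0.10 SE, adjusted p = 0.0136). The 3 IEL.TR libraries exceeded the 6 of DP and SP. The rise over IEL.SP was lost without any 1 IEL.SP library (0.0742 to 0.0945), with no filter (0.0709) and with the replicate block (0.0831), and the difference from IEL.DP was lost without any 1 IEL.DP library (0.0529 to 0.0840) and with no filter (0.1895), while neither was lost without an IEL.TR library. In the lamina propria LP.TR against LP.SP did not pass (log2 difference 0.32 ± 0.11 SE, adjusted p = 0.1002), but did so without LP.SP library 3 (0.0199).

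Ski (chromosome 4, 155154075 to 155222592, minus strand, GRCm38), the founding member of the same family, did not follow Skil. It ran between 108 and 311 over all libraries, with group means of 165 ± 8.84 in IEL.DP, 203 ± 62.9 in IEL.TR, 188 ± 107 in IEL.SP, 155 ± 57.9 in LP.DP, 193 ± 63.8 in LP.TR and 182 ± 22.1 in LP.SP (SD, n = 3 each). No comparison of Ski passed, and its group means spanned 0.41 log2 units, the narrowest span of the 10 genes, against 1.81 for Skil. Per kilobase of exon, Skil exceeded Ski 14.5 to 16.2 times in IEL.DP, 15.96 to 32.1 times in IEL.TR and 6.73 to 23.2 times in IEL.SP. In LP libraries it did so 29.6 to 67.6 times in LP.DP, 34.5 to 60.97 times in LP.TR and 27.6 to 48.5 times in LP.SP. In each population the epithelial libraries lay below those of the lamina propria.

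Beside these differences between sites, 13 epithelial markers, among them Epcam, Cdh1 and Reg3g, summed to 511 to 1603 in IEL.DP against 298 to 511 in LP.DP, to 522 to 692 in IEL.TR against 204 to 379 in LP.TR, and to 545 to 1403 in IEL.SP against 212 to 518 in LP.SP. Stromal and endothelial markers summed to 22.9 to 95.8 in IEL.SP against 97.0 to 129 in LP.SP, and those of innate lymphoid cells to 5.95 to 82.1 in IEL.SP against 129 to 170 in LP.SP. Pecam1 led the stromal and endothelial sum, with means of 40.2 in IEL.SP and 102 in LP.SP. None of the markers of the 3 lists was at 0 in all libraries. Their part in the differences between sites was not tested.

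**Figure D4:**
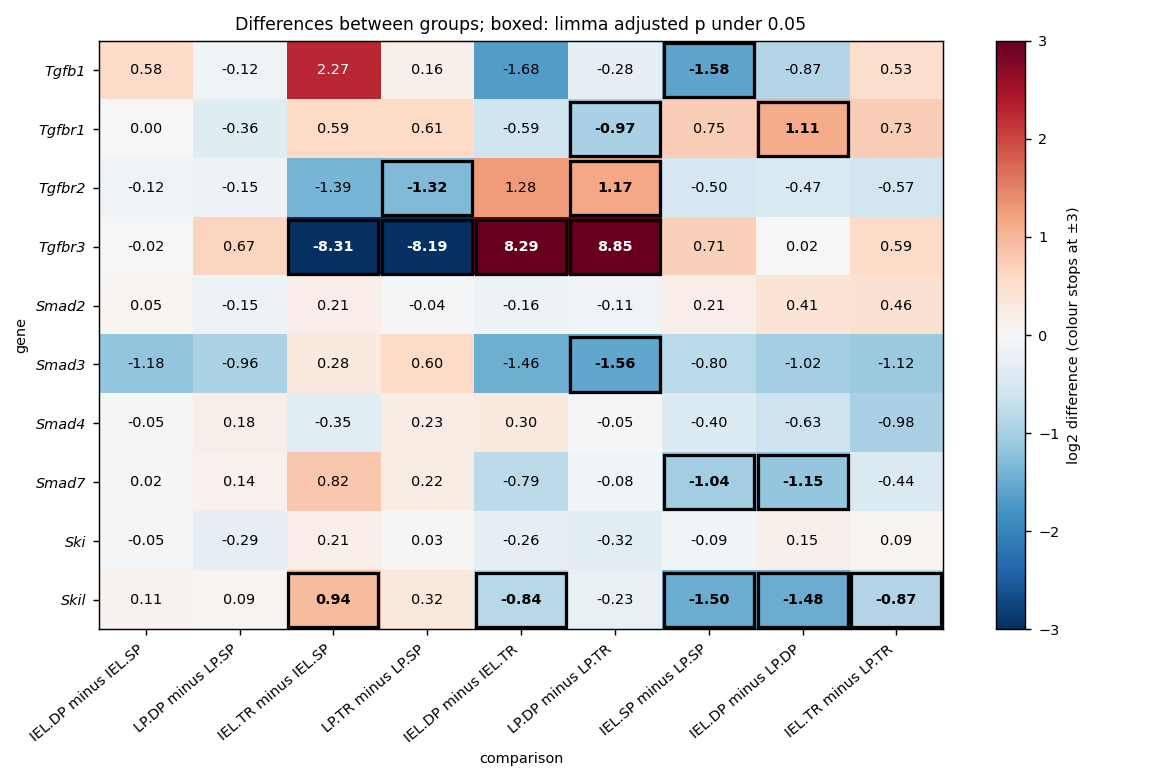
Fitted log2 differences of the 10 genes (lines of the map) in the 9 pairwise comparisons (columns), first group minus second, with red for higher and blue for lower in the first group. Differences with a limma adjusted p under 0.05 are marked. Tgfbr3 is marked in the 4 comparisons of TR cells with DP or SP cells, Skil in all 3 comparisons of sites, Smad7 in those of DP and SP cells, and no gene is marked between DP and SP cells.

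By comparison, the calls fell as follows, beside the share of all tested genes called in each direction. Between IEL.DP and IEL.SP none of the 10 was called, where 0.0452% of all genes were higher and 0.168% lower. Between LP.DP and LP.SP none was called either, where 0.252% were higher and 0.517% lower. In IEL.TR against IEL.SP 1 of 10 was higher (1.49% of all genes) and 1 lower (1.42%), and the 450 genes behind these shares became 37 without IEL.SP library 2. In LP.TR against LP.SP none was higher (5.03%) and 2 were lower (4.47%). In IEL.DP against IEL.TR 1 was higher (1.78%) and 1 lower (2.36%). In LP.DP against LP.TR 2 were higher (5.42%) and 2 lower (7.76%). These 6 comparisons share libraries within each site, so their counts are not independent.

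Between sites, in IEL.SP against LP.SP none was higher (4.25%) and 3 were lower (5.66%). In IEL.DP against LP.DP 1 was higher (4.1%) and 2 were lower (5.42%). In IEL.TR against LP.TR none was higher (0.0323%) and 1 was lower (0.569%). The groups did not overlap in 6 of the 10 genes for SP cells (28.43% of all genes), 7 for DP cells (30.84%) and 6 for TR cells (19.93%). The median log2 difference of the 10 genes between sites was -0.45 in SP cells, -0.55 in DP cells and -0.18 in TR cells, beside 0.03, 0.05 and -0.05 over all genes. Between LP.DP and LP.TR, with the most calls, 6 of the 10 did not overlap, beside 30.66% of all genes.

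Whether a difference depended on the site was tested directly. The DP difference from SP differed between sites for none of the 10, and for 0% of all genes in the direction of higher in the epithelial layer and 0% lower. At an unadjusted p under 0.05 there were 974 such genes, edgeR called 0 and DESeq2 called 31. The TR difference from SP also differed between sites for none of the 10, beside 0.11% of all genes higher and 0.0582% lower. The smallest p values were those of Skil, whose difference was 0.63 ± 0.18 larger in the epithelial layer (log2, SE; adjusted p = 0.327), Smad7 at 0.60 ± 0.20 (adjusted p = 0.435) and Tgfb1 at 2.11 ± 0.73 (adjusted p = 0.463).

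Of 63 other genes of the pathway, 46 passed the filter. These genes were listed with earlier results of these data known, so their counts are descriptive. In LP.TR against LP.SP 6 of the 46 were higher and 3 lower, beside 5.03% and 4.47% of all genes, and in IEL.TR against IEL.SP 2 were higher and none lower, beside 1.49% and 1.42%. The median log2 difference of the 46 was 0.11 in LP.TR against LP.SP, beside -0.01 over all genes, and -0.02 in IEL.TR against IEL.SP, beside -0.05. The list with the most calls was that of ligand latency and activation. Of its 7 genes, 3 were higher and 1 lower in LP.TR than in LP.SP, and 1 was higher in IEL.TR than in IEL.SP. In LP.TR against LP.SP, other ligands had 1 higher and 1 lower of 3, and other receptors 1 higher of 5. Modifiers of receptors and Smads had 1 higher and 1 lower of 16. Other Smads (3 tested), nuclear partners (8) and the Smad-independent branch (4) had none. Nrp1, a surface receptor that also binds latent TGF-beta, averaged 871 ± 252 in IEL.TR against 4.66 ± 1.89 in IEL.SP (log2 difference 7.27 ± 0.39 SE, adjusted p = 0.00152). Its lamina propria means were 342 ± 79.2 in LP.TR against 4.48 ± 3.16 in LP.SP (log2 difference 6.09 ± 0.46 SE, adjusted p = 1.71e-06). Itgav, the integrin chain alpha V of the activators of latent TGF-beta, averaged 2306 ± 299 in LP.TR against 185 ± 43.5 in LP.SP (log2 difference 3.65 ± 0.21 SE, adjusted p = 1.90e-07). Furin, the protease that cleaves the TGF-beta precursor, went the other way, 1154 ± 263 in LP.TR against 5707 ± 479 in LP.SP (log2 difference -2.33 ± 0.22 SE, adjusted p = 1.50e-05). Lrrc32 (GARP), which holds latent TGF-beta on regulatory T cells, was chosen here after its values were seen, and averaged 216 ± 42.9 in LP.TR against 2.55 ± 1.23 in LP.SP (log2 difference 5.99 ± 0.61 SE, adjusted p = 2.91e-05). Sptbn1, a spectrin that assists Smad3 and Smad4, rose in IEL.TR to 1380.2 ± 149 against 413 ± 66.2 in IEL.SP (log2 difference 1.75 ± 0.17 SE, adjusted p = 0.00854), a call that was lost without IEL.SP library 2 (0.0704) or 3 (0.0536).

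In LP.DP against LP.TR 5 of the 46 were higher and 9 lower, beside 5.42% and 7.76% of all genes, and in IEL.DP against IEL.TR 2 were higher and 2 lower, beside 1.78% and 2.36%. Itgav (log2 difference -3.28 ± 0.21 SE, adjusted p = 2.65e-07) and Nrp1 (log2 difference -6.74 ± 0.46 SE, adjusted p = 3.72e-07) were lower in LP.DP than in LP.TR. Nrp1 (log2 difference -8.13 ± 0.40 SE, adjusted p = 9.08e-04) and Sptbn1 (log2 difference -2.12 ± 0.23 SE, adjusted p = 0.00920) were lower in IEL.DP than in IEL.TR. The ligand gene Tgfb3 averaged 72.6 ± 7.99 in IEL.DP against 0.977 ± 1.03 in IEL.TR (log2 difference 5.36 ± 0.52 SE, adjusted p = 0.00683), and this call was lost without any 1 IEL.DP library (0.0502 to 0.0573). Sptbn1 was lost without IEL.DP library 2 (0.0544) and with the replicate block (0.0651), and with no filter on low values Nrp1 (0.0558), Sptbn1 (0.1395) and Tgfb3 (0.115) were all lost. Between DP and SP cells, none of the 46 was called in the epithelial layer, beside 0.0452% of all genes higher and 0.168% lower. In the lamina propria none was higher and 2 were lower, beside 0.252% and 0.517%. Of those 2, Gdf11, a ligand of the activin branch, averaged 486 ± 72.8 in LP.DP against 948 ± 36.7 in LP.SP (log2 difference -0.97 ± 0.20 SE, adjusted p = 0.0402). Removal of any 1 of the 6 libraries ended the call (0.0759 to 0.150).

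Between sites, 1 of the 46 was higher and 5 lower in IEL.SP than in LP.SP, beside 4.25% and 5.66% of all genes. In IEL.DP against LP.DP 1 was higher and 4 lower, beside 4.1% and 5.42%. None was called between IEL.TR and LP.TR, beside 0.0323% of all genes higher and 0.569% lower. Tgif1, a co-repressor of Smads like Skil, averaged 63.0 ± 27.2 in IEL.SP against 915 ± 271 in LP.SP (log2 difference -3.88 ± 0.33 SE, adjusted p = 4.48e-06). In DP cells it averaged 104 ± 18.7 in IEL.DP against 785 ± 230.4 in LP.DP (log2 difference -2.88 ± 0.33 SE, adjusted p = 8.66e-05). Ldlrad4, an inhibitor of Smad2 and Smad3 activation, averaged 191 ± 52.4 in IEL.DP against 871 ± 83.9 in LP.DP (log2 difference -2.21 ± 0.26 SE, adjusted p = 9.95e-05). Furin was lower in IEL.SP than in LP.SP (log2 difference -1.63 ± 0.22 SE, adjusted p = 3.21e-04), and in IEL.DP than in LP.DP (log2 difference -1.31 ± 0.22 SE, adjusted p = 0.00202). Bambi, a decoy receptor named after its values were seen, was lower in IEL.SP (log2 difference -2.70 ± 0.54 SE, adjusted p = 0.00591) and in IEL.DP (log2 difference -2.27 ± 0.54 SE, adjusted p = 0.0179) too.

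Genes that TGF-beta is known to induce or repress in T cells were counted in the same way. They too were listed with earlier results of these data known, so the counts are descriptive. Of 10 induced genes tested, 3 were higher and none lower in LP.TR against LP.SP, and of 13 repressed genes 3 were higher and 5 lower, beside the 5.03% and 4.47% of all genes. Gpr15, a homing receptor it induces, averaged 515 ± 143 in IEL.TR against 42.2 ± 16.1 in IEL.SP (log2 difference 3.61 ± 0.40 SE, adjusted p = 0.0131), a call that was lost without any 1 IEL.SP library (0.0556 to 0.0757). Ifng, which it represses, averaged 31.4 ± 21.4 in LP.TR against 1091 ± 125 in LP.SP (log2 difference -5.38 ± 0.44 SE, adjusted p = 4.29e-06). Between LP.DP and LP.SP, 1 induced gene was higher and 1 lower, and 2 repressed genes were higher, beside 0.252% of all genes higher and 0.517% lower. Itgae, the chain of CD103 that TGF-beta induces, averaged 3929 ± 107 in LP.DP against 1636 ± 27.9 in LP.SP (log2 difference 1.26 ± 0.12 SE, adjusted p = 1.34e-04), while Runx1, also induced, was lower in LP.DP (log2 difference -0.81 ± 0.14 SE, adjusted p = 0.0125). Gzma, a granzyme gene of the repressed list, rose in LP.DP (log2 difference 2.12 ± 0.29 SE, adjusted p = 0.00393). Both were lost with all 18 libraries in 1 fit (Gzma 0.0752, Runx1 0.302), and Runx1 also with only the groups compared (0.116) and without LP.DP library 1 (0.0595) or LP.SP library 2 (0.0612). In IEL.TR against IEL.SP, 1 induced gene was higher, and 2 repressed genes were higher and 2 lower, beside 1.49% and 1.42% of all genes, Ifng among the lower (log2 difference -3.59 ± 0.37 SE, adjusted p = 0.0106), a call lost without any 1 IEL.SP library (0.0742 to 0.0803).

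In LP.DP against LP.TR, 1 induced gene was higher and 3 lower, beside 5.42% and 7.76% of all genes. Of the repressed genes, 6 were higher and 2 lower. Ifng (log2 difference 5.21 ± 0.44 SE, adjusted p = 3.79e-06) and Tbx21, the gene of the transcription factor T-bet (log2 difference 3.27 ± 0.29 SE, adjusted p = 4.79e-06), were among the 6. In IEL.DP against IEL.TR, 1 induced gene was higher, beside 1.78% of all genes higher and 2.36% lower. Of the repressed genes, 4 were higher and 1 lower. Ifng was again higher (log2 difference 3.71 ± 0.40 SE, adjusted p = 0.00950), a call lost without any 1 IEL.DP library (0.0524 to 0.0667). Between sites, 1 induced gene was higher and 2 lower in IEL.SP than in LP.SP, beside 4.25% and 5.66% of all genes. Of the repressed genes, 1 was higher. Itgae (log2 difference 1.31 ± 0.12 SE, adjusted p = 8.32e-06) and Gzma (log2 difference 1.85 ± 0.29 SE, adjusted p = 9.98e-04) were the higher ones. In IEL.DP against LP.DP, 2 induced genes were higher and 2 lower, beside 4.1% and 5.42% of all genes. Of the repressed genes, 1 was lower. Ahr, a ligand-activated transcription factor of the induced list, was among the lower (log2 difference -1.66 ± 0.30 SE, adjusted p = 0.00350). No gene of either target list was called in IEL.DP against IEL.SP, beside 0.0452% of all genes higher and 0.168% lower. None was called in IEL.TR against LP.TR either, beside 0.0323% higher and 0.569% lower.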

How the data were processed

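Per the submitters' processing notes the tools were TopHat and HTSeq on mm10, with no versions, and per the labels' protocols libraries of sorted cells were made with Nextera XT and indexed in 1 pool. The deposited values are a signal of normalised read counts, 1 column for each of 18 libraries, and how the authors computed the factors is not given in the sources used here. In each library 100% of values were whole multiples of 1 step within 0.1 steps, so whole reads were recovered for the tests on reads.

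The filter kept genes that reached 10 in 3 or more libraries (15472 of 38392), and log2(value + 1) was fitted with limma 3.58.1 (trended, robust variance) in R 4.3.3. Comparisons with IEL.TR used only their own libraries (6, or 12 for the TR interaction), the others the 15 libraries outside IEL.TR. Two-sided p-values were adjusted by Benjamini-Hochberg over all genes tested and called under 0.05. Groups came from the sample titles. The members and lists were chosen with earlier results of these data known. Every member is reported. Other pathway and target genes were named where called among the 4 smallest p of all lists in a pairwise comparison, and nearest genes for the 2 members of widest range; exceptions are stated.

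Alternatives were pseudocounts of 0.5 and 5, no filter or a filter at 50, library weights, equal totals, quantile and TMM scaling, other sets of libraries, a replicate block, edgeR 4.0.16 and DESeq2 1.42.0 on the recovered reads, and each library left out. edgeR called 28 genes for IEL.DP against IEL.SP, 117 for LP.DP against LP.SP, 306 for IEL.TR against IEL.SP, 1326 for LP.TR against LP.SP and 76 for IEL.TR against LP.TR. Promoter windows were 250 bases of RefSeq sequence. Loci and exon lengths were read from GENCODE on GRCm38, the assembly of mm10. Figures were drawn with matplotlib 3.10.9.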

Additional observations from a re-analysis of the deposited data

Results flagged for a closer look

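The difference between TR and SP cells in Itgav, the integrin chain alpha V, differed between sites by -2.57 ± 0.41 on the log2 scale (SE, limma adjusted p = 0.049). Itgav averaged 503 ± 217 in IEL.TR against 221 ± 11.01 in IEL.SP. In the lamina propria it averaged 2306 ± 299 in LP.TR against 185 ± 43.5 in LP.SP (SD, n = 3 each). The call was lost in 16 of 24 alternatives, among them the replicate block (0.0616) and the fit without any 1 LP.TR, LP.SP or IEL.SP library (0.0843 to 0.153) or without IEL.TR library 2 (0.0558), with a value of -2.88 to -2.23 over the libraries left out in turn.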

How the results depend on the processing

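Over the 110 differences of the 10 genes, 2159 alternative values were computed. Of these, 2101 stayed on their side of the threshold, 33 lost a call, 25 gained one, and no called difference changed sign. Of 17 called differences 284 of 317 alternatives kept the call. The number of the 10 genes called moved for LP.DP against LP.SP to 1 in DESeq2. For IEL.TR against IEL.SP, 2 became 5 with all 18 libraries in 1 fit, 4 in DESeq2, 1 with no filter and 1 with the replicate block. For IEL.DP against IEL.TR, 2 became 5 with all 18 libraries, 4 with library weights, 6 in DESeq2 and 0 with no filter. For IEL.SP against LP.SP, 3 became 5 in DESeq2 and 2 with no filter, a filter at 50, edgeR or only the groups compared. For IEL.TR against LP.TR, 1 became 0 with no filter, quantile scaling or the block. The cause was not tested. Leaving out 1 library gave 1 to 2 for IEL.TR against IEL.SP, 1 to 3 for IEL.DP against IEL.TR and 0 to 1 for IEL.TR against LP.TR. Over all alternatives, libraries left out included, LP.TR against LP.SP gave 2 to 3 beside 2, LP.DP against LP.TR 3 to 5 beside 4, and IEL.DP against LP.DP 2 to 4 beside 3. Leaving out 1 library gave 2 to 3 for IEL.SP against LP.SP. Tgfb1 has no value with the filter at 50. Over all genes, IEL.TR against IEL.SP ran between 63 (block) and 1799 (all 18 libraries) beside 450, IEL.DP against IEL.TR between 9 (no filter) and 2170 beside 640, and IEL.TR against LP.TR between 0 and 1008 beside 93. IEL.DP against IEL.SP ran between 9 and 111 beside 33, and LP.DP against LP.SP between 45 and 354 beside 119. LP.TR against LP.SP fell to 854 beside 1470, IEL.SP against LP.SP to 862 beside 1533 and IEL.DP against LP.DP to 847 beside 1472. The interaction of TR ran between 9 and 192 beside 26. Leaving out 1 library gave 37 (without IEL.SP library 2) to 629 (without IEL.TR library 1) for IEL.TR against IEL.SP, and 143 (without IEL.DP library 3) to 817 (without IEL.TR library 1) for IEL.DP against IEL.TR. It gave 0 (without any LP.TR library) to 159 (without IEL.TR library 1) for IEL.TR against LP.TR, and 0 (without LP.TR library 1) to 73 (without IEL.TR library 3) for the interaction of TR. It gave 8 (without IEL.SP library 2) to 33 for IEL.DP against IEL.SP and 67 (without LP.DP library 1) to 98 for LP.DP against LP.SP. The pairing by replicate number was checked from deviations from group means. The 45 same-numbered pairs correlated at 0.00053 to 0.0887, and all 18 libraries were nearest to their own number. Libraries of a number thus deviated together, if weakly, and the labels do not say what a number marks. The main tests leave the numbers out. The block, which uses them, called 44 genes beside 33 for IEL.DP against IEL.SP. It called 171 beside 119 for LP.DP against LP.SP and 63 beside 450 for IEL.TR against IEL.SP. The fit of IEL.TR against IEL.SP held 6 libraries and those of DP against SP 15. The block therefore left the smaller fit less from which to estimate the spread, and the part of this in its count was not tested. With the block, Skil in IEL.TR against IEL.SP kept its log2 difference of 0.94, at an adjusted p of 0.0831. In IEL.TR against LP.TR the adjusted p of Skil was 0.172. Depth limits Tgfbr3 in TR cells and Tgfb1 in IEL.SP, which rest on 6, 3 and 43 reads.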
